A study of Homo sapiens with 2 samples.

Results

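Nucleotide excision repair removes bulky, helix-distorting lesions from DNA, among them ultraviolet photoproducts and the intrastrand crosslinks left by platinum drugs. The 9 genes described here encode its damage-recognition and incision proteins that are not subunits of TFIIH: XPC, RAD23B, CETN2, DDB1, DDB2, XPA, ERCC4, ERCC1 and ERCC5. They were taken from a list of gene symbols after the Ensembl gene IDs of both count files had been matched to symbols, and all 9 were found once among the 58884 gene IDs.

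The libraries came from T24/R, an adherent human bladder line whose name relates it to the urothelial carcinoma line T24. The THZ1 library was made from cells treated for 6 h with 1600 nM THZ1, and the DMSO library from cells that received the solvent for 6 h. THZ1 is a covalent inhibitor of CDK7, the TFIIH kinase, with further activity against the related kinases CDK12 and CDK13. Each group had 1 library. The comparison is therefore without replicates and without p-values, and all intervals are 95% intervals that cover counting error only. The labels do not state whether T24/R is a clone or how it was derived.

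The THZ1 library held 18313827 counts and the DMSO library 18445831, and transcripts of the mitochondrial chromosome took 19.9% of counts in THZ1 and 8.75% in DMSO. Scaling by TMM gave effective library sizes of 15320940 for THZ1 and 22049153 for DMSO. Of 15 urothelial and epithelial markers, 3 reached 30 counts in THZ1 and 4 in DMSO, KRT18 stood highest (494 counts in THZ1 and 696 in DMSO), and EPCAM had 3 counts in THZ1 and 0 in DMSO. Most of these markers were thus near 0 in a line labelled epithelial. None of 5 leukocyte or 3 endothelial markers reached 30 counts in either library, and of 5 fibroblast markers LUM stood highest, with 69 counts in THZ1 and 34 in DMSO. In a bulk sample, fewer cells of a type and less RNA per cell cannot be told apart.

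In global-genome repair, the XPC protein, bound to RAD23B and centrin-2 (the product of CETN2), finds the distorted helix, and the DDB1-DDB2 complex helps at lesions that distort it little. TFIIH then opens the DNA, XPA verifies the damage and positions the other factors, and both sides of the lesion are cut, on the 5′ side by the XPF-ERCC1 heterodimer (XPF is the product of ERCC4) and on the 3′ side by XPG (the product of ERCC5). CDK7 is part of the TFIIH complex that serves both transcription and this pathway.

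With TMM scaling the members did not share one direction. ERCC4 and XPC were then lower in the THZ1 library, CETN2 was higher, and the other 6 stayed within 2-fold. Scaled to the mRNAs of the mitochondrial genome instead, all 9 ratios lay below 0, with CETN2 highest at −0.36. Calls required a ratio of at least 2-fold and a counting interval that excluded 1, and were made for the 12457 genes that reached 30 counts in either library. All 9 members passed that minimum. By this rule, with TMM scaling, 2 of 9 members were lower, beside 21.3% of all tested genes. With the same scaling 1 of 9 was higher, beside 9.70%. Both shares are near those of all tested genes, so the counts say nothing particular about the members. Their median log2 ratio of 0.18 lay beside −0.03 for all tested genes, and 5 members stood above that value and 4 below it.

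The promoter windows of the 3 called genes follow, as background to the values below. They come from RefSeq (GRCh38.p14), run 5′ to 3′ on the gene's strand from 250 bases before to 50 bases after the annotated start, and are in lower case with motif matches in capitals. Capitals mark CCGGAAG (an ETS-type element) and the repeated letters TTCGGC in ERCC4, GGGCGG (a GC box) in XPC, and GGGCGG and CCAAT, or its reverse complement ATTGG, in CETN2.
ERCC4, chr16:13919904-13920203, plus strand: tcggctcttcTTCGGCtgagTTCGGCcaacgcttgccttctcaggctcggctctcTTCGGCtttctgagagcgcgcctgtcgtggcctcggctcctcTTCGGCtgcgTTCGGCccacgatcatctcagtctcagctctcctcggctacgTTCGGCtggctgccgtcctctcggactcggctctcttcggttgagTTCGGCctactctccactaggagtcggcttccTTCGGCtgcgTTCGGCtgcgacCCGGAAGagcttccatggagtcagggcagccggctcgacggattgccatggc
XPC, chr3:14178552-14178851, minus strand: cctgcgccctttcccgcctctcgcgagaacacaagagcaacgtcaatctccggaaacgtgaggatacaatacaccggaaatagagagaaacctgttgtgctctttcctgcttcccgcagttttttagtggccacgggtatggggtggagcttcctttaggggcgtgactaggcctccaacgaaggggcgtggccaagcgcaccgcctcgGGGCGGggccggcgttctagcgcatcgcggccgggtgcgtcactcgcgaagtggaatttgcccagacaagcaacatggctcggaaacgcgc
CETN2, chrX:152830708-152831007, minus strand: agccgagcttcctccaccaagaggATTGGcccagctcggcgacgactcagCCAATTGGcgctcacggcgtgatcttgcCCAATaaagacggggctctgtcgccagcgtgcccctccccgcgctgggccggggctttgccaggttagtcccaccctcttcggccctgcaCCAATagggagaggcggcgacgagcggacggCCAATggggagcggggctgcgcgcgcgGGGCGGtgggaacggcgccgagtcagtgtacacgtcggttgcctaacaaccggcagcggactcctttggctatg

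The motif search covered both strands of all 14 RefSeq windows of the 9 members, since some genes have several annotated starts. GGGCGG was found in 8 of the 14 windows and in 45.0% of all 35116 promoter windows of that length, CCAAT in 4 and in 34.6%, and CCGGAAG in 3 and in 10.3%. The windows with CCGGAAG belong to ERCC4, ERCC5 and ERCC1. TATAAA (the TATA box), TGACGTCA (a cyclic AMP response element), TGACTCA (an AP-1 element) and CACGTG (an E-box) were in 0 of the 14 windows, and in 11.5%, 1.85%, 4.95% and 7.26% of all windows. In CETN2, 1 CCAAT overlaps 1 ATTGG. These matches describe letters in the windows and are not measured binding sites.

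XPC, the lesion sensor of global-genome repair, was lower in the THZ1 library. It had 146 counts in THZ1 and 553 in DMSO, or 9.53 and 25.1 TMM-scaled CPM (counts divided by the effective library size, on a common scale). The log2 ratio was −1.39 (−1.67 to −1.13), a 2.63-fold lower level in THZ1, and 14.8% of tested genes had a lower ratio still. XPC (ENSG00000154767) lies on chromosome 3 from 14145147 to 14178783.

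Its partners in the recognition complex were not called lower on this scaling. RAD23B, which stabilizes XPC, had 6010 counts in THZ1 and 5714 in DMSO, or 392 and 259 CPM, with a log2 ratio of 0.60 (0.55 to 0.65), within 2-fold. CETN2, a calcium-binding protein that also serves at centrioles, was the only member called higher, with 1854 counts in THZ1 and 1060 in DMSO, or 121 and 48.1 CPM. Its log2 ratio was 1.33 (1.22 to 1.44), 2.52-fold higher in THZ1, and 95.7% of tested genes had a lower ratio. CETN2 (ENSG00000147400) lies on chromosome X from 152826973 to 152830777, and RAD23B (ENSG00000119318) on chromosome 9 from 107283137 to 107332194.

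DDB1 and DDB2 form the ultraviolet damage sensor that works with the CUL4 ubiquitin ligase. DDB1, the adaptor, had 4422 counts in THZ1 and 5356 in DMSO, or 289 and 243 CPM, with a log2 ratio of 0.25 (0.19 to 0.31). DDB2, which contacts the lesion, had 291 counts in THZ1 and 484 in DMSO, or 19.0 and 22.0 CPM, with a log2 ratio of −0.21 (−0.42 to 0.004). DDB2 was the only member whose counting interval included 0 on this scaling. DDB1 (ENSG00000167986) lies on chromosome 11 from 61299451 to 61342596 and DDB2 (ENSG00000134574) on the same chromosome from 47214465 to 47239240.

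XPA, the scaffold that verifies damage, had 389 counts in THZ1 and 457 in DMSO, or 25.4 and 20.7 CPM. Its log2 ratio of 0.29 (0.09 to 0.49) was within 2-fold. XPA (ENSG00000136936) lies on chromosome 9 from 97674909 to 97697357.

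**Figure D1:**
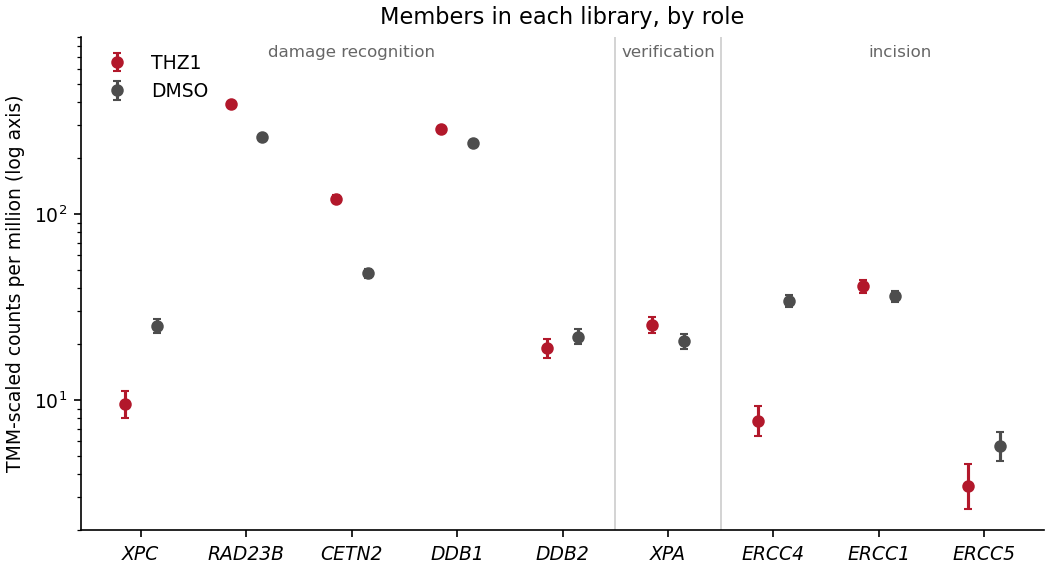
TMM-scaled CPM of each member (log axis) in the THZ1 library (red, left) and the DMSO library (grey, right), with 95% Poisson intervals of the counts, grouped by role. The 2 libraries stand furthest apart for ERCC4 (7.77 against 34.2 CPM), XPC (9.53 against 25.1 CPM) and CETN2 (121 against 48.1 CPM).

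Among the incision genes, ERCC4 had the lowest ratio of all members. This gene encodes XPF, the catalytic subunit of the 5′ nuclease, and had 119 counts in THZ1 and 754 in DMSO, or 7.77 and 34.2 CPM. The log2 ratio was −2.13 (−2.43 to −1.86), a 4.39-fold lower level in THZ1, and 6.45% of tested genes had a lower ratio still. ERCC1, the non-catalytic subunit that XPF needs for stability and DNA binding, had 628 counts in THZ1 and 799 in DMSO, or 41.0 and 36.2 CPM. Its log2 ratio was 0.18 (0.02 to 0.33). ERCC4 (ENSG00000175595) lies on chromosome 16 from 13920157 to 13952345, and ERCC1 (ENSG00000012061) on chromosome 19 from 45407333 to 45478828.

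ERCC5, the gene of the 3′ nuclease XPG, had the fewest counts of the members, 53 in THZ1 and 125 in DMSO, or 3.46 and 5.67 CPM. Its log2 ratio was −0.70 (−1.20 to −0.24), which misses the 2-fold bound on this scaling, and its interval reaches past it. These counts are uncertain, because 63.2% of the exon bases of ERCC5 (5213 of 8242) also belong to the annotated read-through gene BIVM-ERCC5, which was listed at 0 counts in both libraries. How reads that fall in both genes were counted is not given in the sources used here, and if they were set aside only 3029 bases remained to count. ERCC5 (ENSG00000134899) lies on chromosome 13 from 102807146 to 102876001.

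The size of every ratio depends on what the libraries were scaled to. Scaling to total counts lowers every log2 ratio, with a shift of −0.51, and puts the median of all tested genes at −0.54. Scaling to the mRNAs of the mitochondrial genome does so with a shift of −1.69 and puts that median at −1.72. With total counts 3 of 9 members were lower (ERCC4, XPC and ERCC5), beside 34.2% of all tested genes, and 0 were higher, beside 2.95%. CETN2 then had a ratio of 0.82, RAD23B 0.08, and the ratios of DDB1 (−0.27), XPA (−0.22) and ERCC1 (−0.34) lay below 0. With the mitochondrial mRNAs 8 of 9 were lower, beside 80.3%, and 0 were higher, beside 0.706%. The exception was CETN2, at −0.36. ERCC4 (−2.65 and −3.82) and XPC (−1.91 and −3.08) were lower with both. How much RNA each cell held was not measured.

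**Figure D2:**
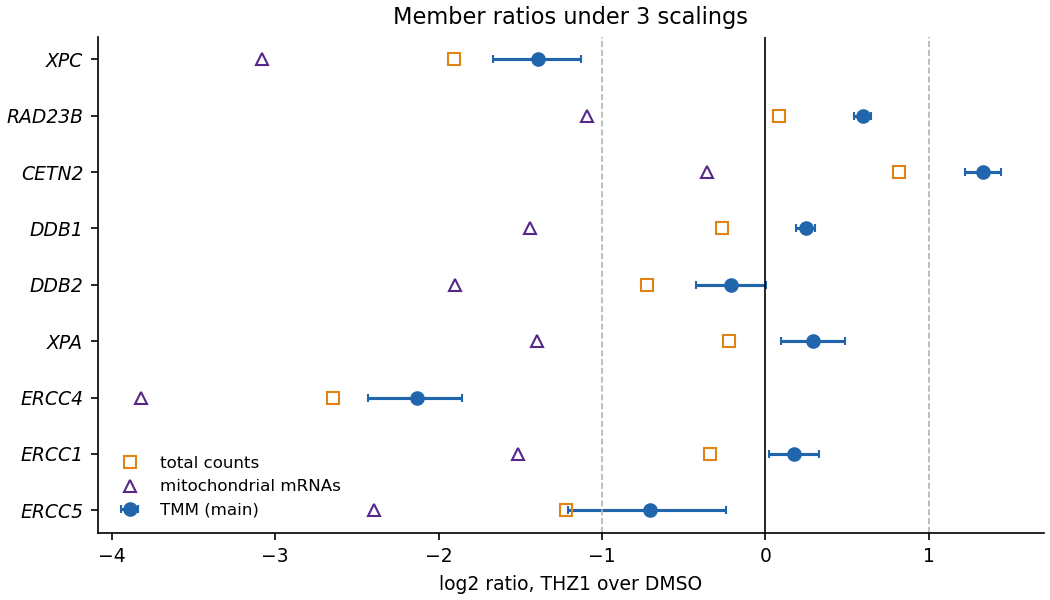
Log2 ratio, THZ1 over DMSO, for each member under TMM scaling (filled circles with 95% counting intervals), total counts (squares) and mitochondrially encoded mRNAs (triangles), with dashed lines at 2-fold. ERCC4 and XPC lie left of the lower 2-fold line with each of the 3, and CETN2 lies right of the upper line only with TMM, at 1.33.

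Ratios between the read counts of 2 genes whose proteins work in one complex do not depend on the scaling, since both are counted in the same library. Proteins were not measured. For each 100 counts of ERCC1 there were 18.9 counts of ERCC4 in THZ1 and 94.4 in DMSO. That is a log2 change of −2.31 (−2.65 to −1.99), so the ratio of ERCC4 to ERCC1 counts was 4.96-fold lower in THZ1. For each 100 counts of CETN2 there were 7.87 of XPC in THZ1 and 52.2 in DMSO, a log2 change of −2.72 (−3.02 to −2.44), the furthest from 0 among the 4 pairs compared.

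XPC also stood lower relative to RAD23B. For each 100 counts of RAD23B there were 2.43 of XPC in THZ1 and 9.68 in DMSO, a log2 change of −1.99 (−2.27 to −1.72). The change was smallest for DDB2 and DDB1, with 6.58 counts of DDB2 for each 100 of DDB1 in THZ1 and 9.04 in DMSO, a log2 change of −0.46 (−0.68 to −0.24). A ratio within a library shows an unequal change of its members and does not show which of them changed. In the pair ERCC4 and ERCC1, 25.7% and 28.6% of exon bases are shared with a gene on the other strand. XPC, compared with both CETN2 and RAD23B, shares 30.4% of its exon bases with other genes.

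**Figure D3:**
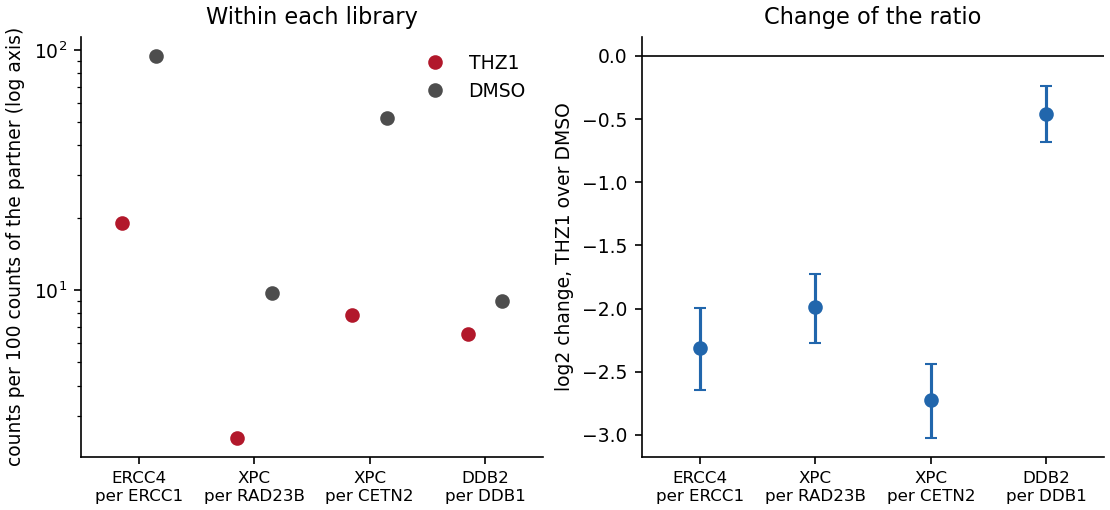
Left, counts of the first gene for each 100 counts of its partner (log axis) in the THZ1 library (red, left) and the DMSO library (grey, right). Right, the log2 change of that ratio, THZ1 over DMSO, with exact 95% conditional intervals, which lie below 0 for all 4 pairs. The changes themselves run from −0.46 for DDB2 and DDB1 to −2.72 for XPC and CETN2.

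Levels of different genes were compared per length, as TPM (counts divided by exon length and scaled to a common sum) over the union of annotated exons, and only within a library, since TPM values are not on the scale of the ratios above. In the THZ1 library the order was RAD23B (183 TPM), CETN2 (135), DDB1 (44.5), XPA (29.8), ERCC1 (15.8), DDB2 (8.35), XPC (4.28), ERCC4 (1.98) and ERCC5 (0.904). In the DMSO library it was RAD23B (236 TPM), CETN2 (105), DDB1 (73.3), XPA (47.6), ERCC1 (27.3), XPC (22.0), DDB2 (18.9), ERCC4 (17.0) and ERCC5 (2.89). The levels of the highest and lowest member were 203-fold apart in THZ1 and 81.6-fold apart in DMSO. On the TMM scale, lengths were also taken over only the exon bases shared with no other gene. All counts of a gene were divided by that length, which fits only if reads in shared bases were not counted. The highest and lowest member were then 74.4-fold apart in THZ1 (85.0 CPM per kilobase for RAD23B and 1.14 for ERCC5). In DMSO they stood at 56.2 and 1.87 CPM per kilobase, so both spans were smaller.

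Counting intervals of neighbours in these orders overlapped in DMSO for XPC (20.2 to 23.9 TPM) and DDB2 (17.2 to 20.6 TPM) and for DDB2 and ERCC4 (15.8 to 18.3 TPM). In THZ1 the intervals of XPC (3.61 to 5.03 TPM) and DDB2 (7.42 to 9.37 TPM) did not overlap. With the longest transcript as the length, DDB1 came to 114 TPM in THZ1 and 177 TPM in DMSO, above CETN2 (109 TPM) in DMSO, and DDB2 came to 23.3 TPM in DMSO, above XPC (21.5 TPM). The places of DDB1 and DDB2 in the order therefore rest on the choice of length. So does the exchange of XPC and DDB2 between the libraries. With unshared bases as the length that exchange was kept. XPC stood above DDB2 in DMSO (7.51 and 4.48 CPM per kilobase) and below DDB2 in THZ1 (2.85 and 3.88). ERCC4 in DMSO (5.06 to 5.84) then stood above DDB2 (4.09 to 4.90), so the place of ERCC4 also rests on the length. ERCC5 is placed too low if reads shared with BIVM-ERCC5 were not counted. On the TMM scale its 0.420 CPM per kilobase in THZ1 and 0.688 in DMSO become 1.14 and 1.87 when only unshared exon bases are used as the length. With unshared bases as the length for all 9, ERCC5 in THZ1 (0.855 to 1.49 CPM per kilobase) overlapped ERCC4 (1.02 to 1.48). Their order there was not resolved, and in DMSO ERCC5 was the lowest. All counts of each gene were kept for these values, which hold only if reads in shared bases were not counted.

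Apart from the rule, the members differ in their gene structure. CETN2 is the most compact, with a span of 3805 bases and 5 exons in its longest annotated transcript. ERCC1 has the longest span, at 71496 bases, ERCC4 the longest transcript, at 6758 bases, and DDB1 the most exons in its longest transcript, 27. The 2 members called lower had spans of 32189 (ERCC4) and 33637 bases (XPC), beside a median of 33637 over the members, and DDB2 (24776) and DDB1 (43146), which were within 2-fold, lay on either side of them.

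Several members share a start region or exons with other genes, and the values of those genes are given beside them. The start of XPC faces that of LSM3, a gene of the U6 small nuclear ribonucleoprotein, on the opposite strand. The annotated starts overlap by 425 bases in GENCODE 29, and the RefSeq promoter windows share 285 of 300 bases. LSM3 had 5272 counts in THZ1 and 2313 in DMSO, a log2 ratio of 1.71 (1.64 to 1.78), so LSM3 was higher where XPC was lower. Among 915 pairs of tested coding genes on opposite strands with starts within 1000 bases, 29 (3.17%) had 1 gene lower and 1 higher, while 31 had both lower and 6 both higher. Of single tested genes, with noncoding genes included unlike in the pairs, 21.3% were lower and 9.70% higher. With coding genes only, in the scaling too, 2330 of 10881 were lower and 930 higher. Whether the share of 3.17% differs from that of unrelated pairs was not tested. With total counts LSM3 had a ratio of 1.20 and XPC −1.91, and on the mitochondrial scaling 0.02 and −3.08.

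The antisense gene XPC-AS1 shares 1140 bases with exons of XPC and had 1 count in THZ1 and 42 in DMSO, a log2 ratio of −4.30 (−10.2 to −2.31). Because no strand setting is given, reads of XPC, XPC-AS1 and LSM3 in the 30.4% of XPC exon bases that other genes share cannot be told apart. CETN2 and NSDHL, a gene of cholesterol synthesis, start 190 bases apart on opposite strands. NSDHL had 256 counts in THZ1 and 461 in DMSO, a log2 ratio of −0.32 (−0.55 to −0.10), while CETN2 was higher. On the mitochondrial scaling both lay below 0, NSDHL at −2.01 and CETN2 at −0.36. CETN2 shares no exon base with another gene.

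POLR1G, a subunit gene of RNA polymerase I, overlaps 1593 exon bases of ERCC1 on the other strand. It was lower, with 43 counts in THZ1 and 234 in DMSO and a log2 ratio of −1.91 (−2.42 to −1.44). BIVM, which shares 1572 exon bases with ERCC5 on the same strand, had 1017 counts in THZ1 and 1183 in DMSO, with a log2 ratio of 0.31 (0.18 to 0.43). TKFC, which encodes triokinase and overlaps 521 exon bases of DDB1 on the other strand, had 183 counts in THZ1 and 208 in DMSO and a log2 ratio of 0.34 (0.05 to 0.63). The antisense gene in ERCC4 had 0 counts in THZ1 and 6 in DMSO. RAD23BP1, a processed pseudogene with 93.1% identity to RAD23B over 1236 bases, was at 0 counts in both libraries.

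**Figure D4:**
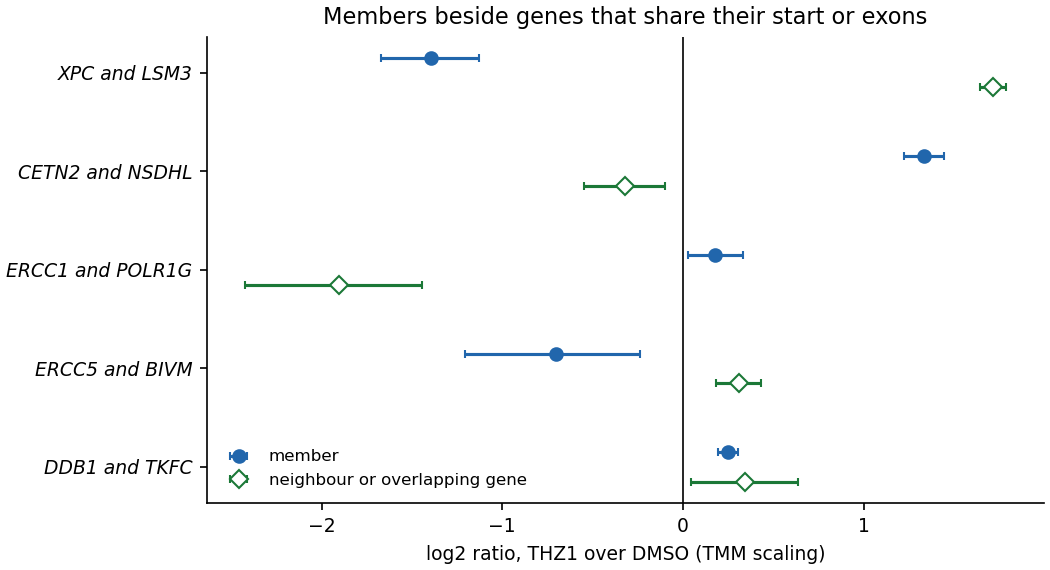
Log2 ratio, THZ1 over DMSO (TMM scaling), for members (filled circles) and for genes that share their start region or exons (open diamonds), with 95% counting intervals. XPC (−1.39) and LSM3 (1.71) lie on opposite sides of 0, as do CETN2 (1.33) and NSDHL (−0.32), ERCC1 (0.18) and POLR1G (−1.91), and ERCC5 (−0.70) and BIVM (0.31), while DDB1 (0.25) and TKFC (0.34) lie on the same side. With total counts ERCC1 (−0.34), POLR1G (−2.42), ERCC5 (−1.22) and BIVM (−0.21) all lie below 0. On the mitochondrial scaling CETN2 (−0.36) and NSDHL (−2.01) both lie below 0.

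The remaining steps of the pathway, with paralogs and nuclease partners of the members, were described through 6 lists of 61 genes, of which 59 were tested. By the same rule 6 were lower (10.2%) and 6 higher (10.2%), beside 21.3% and 9.70% of all tested genes, and their median log2 ratio was 0.19. The paralogs and partners, which are not all genes of the pathway, held 3 of the 6 lower. Among 9 tested genes of TFIIH and its CDK-activating kinase, 1 was lower and 1 higher, with a median of 0.26. The lower one was CDK7, with 180 counts in THZ1 and 676 in DMSO and a log2 ratio of −1.38 (−1.63 to −1.14). The higher one was GTF2H5, the small TFIIH subunit that stabilizes the complex, at 1.28 (1.09 to 1.47), and within 2-fold (0.76) with total counts. The helicase genes ERCC2 (−0.62) and ERCC3 (−0.21) and MNAT1 (0.86), which assembles the kinase, were within 2-fold.

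The transcription-coupled branch, which starts from a stalled RNA polymerase II, had 0 of 9 genes lower and 0 higher. Of all tested genes, 21.3% were lower and 9.70% higher. ERCC6, which encodes the translocase CSB, had 350 counts in THZ1 and 998 in DMSO, with a log2 ratio of −0.99 (−1.17 to −0.81), and XAB2, a pre-mRNA splicing factor that binds XPA, stood at −0.96 (−1.21 to −0.73). TCEA1, the elongation factor that helps polymerase to resume, was at 0.87 (0.80 to 0.95). Both ERCC6 and XAB2 lie just inside the 2-fold bound. With total counts 4 of the 9 were lower, both of these among them, beside 34.2% of all tested genes. With DESeq2 size factors 2 of the 9 were lower, beside 23.8%, and with the upper quartile 1 was lower, beside 22.2%.

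The CUL4 ligase that carries the DDB1-DDB2 sensor, and the COP9 signalosome that regulates it, had 0 of 14 genes lower and 2 higher. Of all tested genes, 21.3% were lower and 9.70% higher. The median log2 ratio of the 14 was 0.56. RBX1, the RING subunit of the ligase, had 1471 counts in THZ1 and 910 in DMSO, a log2 ratio of 1.22 (1.10 to 1.34), and COPS9, the smallest signalosome subunit, was at 1.39 (1.20 to 1.59). The scaffold gene CUL4B was at 0.88 (0.82 to 0.94). With total counts 0 of the 14 were higher, beside 2.95% of all tested genes.

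Paralogs and nuclease partners of the members held genes called in both directions. SLX4, the scaffold on which XPF-ERCC1 works in crosslink repair, had 76 counts in THZ1 and 544 in DMSO, a log2 ratio of −2.31 (−2.68 to −1.97). EME1 (−1.68, −1.89 to −1.48) and MUS81 (−1.12, −1.55 to −0.72), which encode the heterodimeric MUS81-EME1 nuclease of the same structural family as XPF-ERCC1, were also lower. CETN3, a centrin like CETN2, was higher at 1.01 (0.85 to 1.17), and its ratio of 0.90 with DESeq2 size factors was within 2-fold. In all, 3 of 7 were lower and 1 higher, beside 21.3% and 9.70% of all tested genes.

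Replication protein A, which coats the undamaged strand, and the gap-filling enzymes act before and after the cuts. RPA3 was higher at 1.29 (1.15 to 1.43), with 1070 counts in THZ1 and 630 in DMSO, and RPA1 (0.56) and RPA2 (0.28) were within 2-fold. Of 17 tested gap-filling and ligation genes, 2 were lower and 1 higher, beside 21.3% and 9.70% of all tested genes. POLD3, a DNA polymerase delta subunit, had 310 counts in THZ1 and 2010 in DMSO, a log2 ratio of −2.17 (−2.35 to −2.00), and RFC4, a clamp-loader subunit, was at −1.19 (−1.38 to −1.01). POLE4, a small subunit of DNA polymerase epsilon, was higher at 1.41 (1.13 to 1.70). With total counts both RPA3 (0.77) and POLE4 (0.90) were within 2-fold.

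Genes of the other repair pathways listed for comparison had 9 lower (25.7%) and 0 higher among 35 tested, beside 21.3% and 9.70% of all tested genes, with a median of −0.13. The lower share is near that of all tested genes. Base excision repair had 4 of 18 lower: the flap endonuclease gene FEN1 (−2.01), the nuclease gene APEX2 (−1.95) and the glycosylase genes NEIL3 (−1.45) and TDG (−1.25). Mismatch repair had 3 of 8 lower: MSH6, a mismatch-recognition gene, with 642 counts in THZ1 and 3211 in DMSO and a log2 ratio of −1.80 (−1.92 to −1.67), the exonuclease gene EXO1 (−1.64) and MLH3 (−1.05), a MutL-family gene. End joining had 2 of 9 lower, the DNA polymerase genes POLL (−1.58) and POLM (−1.67), while XRCC5 (0.79) and XRCC6 (0.75), the subunits of Ku, were within 2-fold. No difference between these lists and the members was tested, since each group had 1 library.

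**Figure D5:**
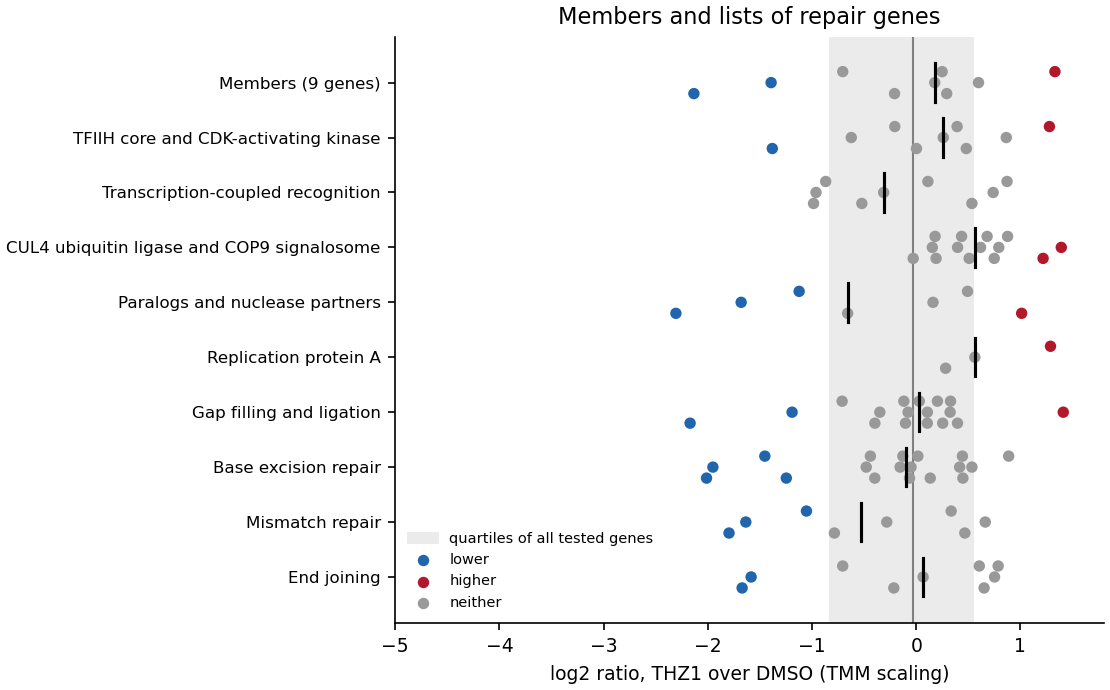
Log2 ratio, THZ1 over DMSO (TMM scaling), for each tested gene of the 9 members and of 9 lists of repair genes, with genes called lower in blue, called higher in red and neither in grey. Black ticks are list medians, the grey band spans the quartiles of all tested genes (−0.83 to 0.55), and the members run from −2.13 (ERCC4) to 1.33 (CETN2).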

How the data were processed

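Each deposited file gives, for 1 library, the authors' read count of every gene as a whole number without normalization, judged from the values. Per the submitters' processing notes, Trimmomatic 0.38, HISAT2 2.1.0, featureCounts 1.6.0 and GRCh38 were used. Annotation release, strand setting and the handling of shared reads are not given in the sources used. Per the labels' protocols, RNA was extracted with TRIzol and libraries were made with the KAPA mRNA HyperPrep kit.

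Of 58884 Ensembl IDs, 58611 were found in GENCODE 29 (GRCh38), which gave positions, lengths and overlaps, and 58472 were paired with a symbol. All 9 members were matched. TMM factors came from edgeR 4.0.16 (R 4.3.3) on genes that reached 30 counts in either library. Ratios used 0.5 added counts, and their intervals are exact Clopper-Pearson intervals of the THZ1 share of both counts, computed for the whole table. Partner ratios have exact conditional intervals of the odds ratio. Since the libraries had no stated molecular identifiers, PCR copies can count as reads, so intervals cover counting error only and variation between cultures is not measured. Promoter windows are from RefSeq, with all 9 members matched, and similar transcripts were searched with BLAST over the GENCODE 29 transcripts.

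The members and lists were chosen with earlier results of these data known. From each list the text names up to 3 genes with the ratio furthest from 0 among those with 100 or more counts, and genes that complete a small count. ERCC2, ERCC3, neighbours, overlapping genes and the letters TTCGGC were named after their values were seen. Other scalings tried were mitochondrial mRNAs, the upper quartile, total counts and size factors of DESeq2 1.42.0. Other settings were count minimums of 1 and 100, coding genes only, a stricter interval rule, thinning, 5 added counts and other lengths. CPM per kilobase and unshared lengths were added after the data were seen. Tables were made with scipy 1.17.1, numpy 2.4.6 and pandas 2.3.3 in Python 3.11.15, and figures with matplotlib 3.10.9.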

Additional observations from a re-analysis of the deposited data

How the results depend on the processing

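ERCC4 and XPC kept their calls under all 10 alternatives. For many of these that outcome was fixed in advance. The other scalings each lower every log2 ratio, and the count minimums leave the member ratios unchanged, so neither could end these lower calls. CETN2 kept its call except with total counts (0.82, within 2-fold) and mitochondrial mRNAs. Members called lower numbered 8 with mitochondrial mRNAs, against 2, where 80.3% and 21.3% of all tested genes were lower. Members called higher numbered 0 with total counts and with mitochondrial mRNAs, against 1. The shares of all tested genes called higher were 2.95%, 0.706% and 9.70%. On the mitochondrial scaling the ratios of CETN2 (−0.36), RAD23B (−1.09), XPA (−1.40), DDB1 (−1.44) and ERCC1 (−1.51) changed sign, which follows from the shift of −1.69 applied to every gene. The 6 lists of other pathway steps, paralogs and nuclease partners had 13 lower and 0 higher with total counts and 47 and 0 with mitochondrial mRNAs, against 6 and 6. All tested genes had 4260 lower and 368 higher with total counts and 10000 and 88 with mitochondrial mRNAs, against 2657 and 1208. Higher calls over all genes numbered 2223 with a count minimum of 1, where 27211 genes were tested, and 670 when the interval bound itself had to reach 2-fold. Members called lower with total counts numbered 3, the third being ERCC5 (−1.22), beside 34.2% of all tested genes. No paired analysis was possible because each group has 1 library. Depth limits ERCC5 most: with 53 counts in THZ1, its interval (−1.20 to −0.24) excludes 0 and spans the lower 2-fold bound.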

Other observations

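The RefSeq promoter window of ERCC4, the member with the lowest ratio, holds 9 copies of the letters TTCGGC on the gene's strand. The window of CETN2, the only member called higher, also holds these letters. Of 35116 promoter windows of 300 bases, 1 holds 9 or more, the window of ERCC4 itself, and 3.82% hold at least 1 copy. The repeat was noticed by reading the sequence. The letters were thus chosen because they recur in this window, and their rarity elsewhere follows in part from that choice. The windows of the other members were not searched for repeats of other letters. The relation of the repeat to the ratio was not tested.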
